A study of Caenorhabditis elegans with 2 samples.

Results

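The regions described here are 847 peaks in introns of protein-coding genes on chromosomes I to IV of the nematode Caenorhabditis elegans. They come from 1 chromatin immunoprecipitation experiment with sequencing (ChIP-seq) on CEH-82, a homeobox protein encoded by F45C12.2, which was tagged at its C-terminal end with GFP and FLAG. The animals were whole larvae of the last larval stage (L4), both sexes together, of strain OP212, which carries unc-119(ed3) on chromosome III and the transgene ddEx58. There was 1 group with 2 biological replicates and no second condition. The animals used were whole organisms, so signal from different tissues cannot be separated. The labels carry the name of an extrachromosomal array and also call the transgene an insertion, and they name no promoter for it. The antibody entry names CEH-82. The control behind the signal values was not analysed here, so none of these peaks is shown to be bound by CEH-82.

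The intron peaks were selected on measured values. A peak of the pooled list of both replicates was kept where its signal value was 3.5 or more, its summit was over 500 bp from each protein-coding gene start, and the summit lay inside a protein-coding gene but in no exon of a protein-coding transcript. That left 847 of 15658 pooled peaks, and of 3470 on the same autosomes past the same signal value. Signal values are therefore given as a description and support nothing. Introns of this animal are mostly short, and the long ones are known to hold regulatory sequence, starts of alternative transcripts and nested genes for small RNAs. Small nucleolar RNAs (snoRNAs) guide chemical changes of other RNAs, small nuclear RNAs (snRNAs) serve in splicing, and transfer RNA (tRNA) genes carry their own promoter, with a B box, inside the gene. Homeodomain proteins as a class are known to recognise words such as TAATTA.

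The first set of sequences shows summits that fell inside a nested small RNA gene, the 6 strongest such peaks whose sequence is given. Each is the summit base with 50 bases on either side, plus strand of ce11 (RefSeq assembly), and capitals mark the bases of the small RNA gene.
ncx-7, snoRNA gene C07A9.14, chrIII:9717363-9717463: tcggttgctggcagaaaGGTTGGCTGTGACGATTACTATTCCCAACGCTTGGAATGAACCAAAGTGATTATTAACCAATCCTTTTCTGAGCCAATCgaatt
B0361.11, microRNA gene mir-2214, chrIII:7278671-7278771: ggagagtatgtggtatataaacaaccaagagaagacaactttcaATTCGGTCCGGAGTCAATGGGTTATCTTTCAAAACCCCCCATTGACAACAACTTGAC
F58G1.7, snRNA gene sup-6, chrII:12944900-12945000: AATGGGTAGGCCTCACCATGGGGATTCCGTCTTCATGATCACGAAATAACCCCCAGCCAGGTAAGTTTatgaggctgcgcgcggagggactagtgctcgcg
ubxn-3, snoRNA gene F48A11.7, chrII:219646-219746: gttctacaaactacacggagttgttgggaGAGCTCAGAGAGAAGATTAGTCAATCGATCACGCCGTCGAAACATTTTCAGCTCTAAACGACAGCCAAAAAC
ptr-13, tRNA gene WBGene00014426, chrII:11157777-11157877: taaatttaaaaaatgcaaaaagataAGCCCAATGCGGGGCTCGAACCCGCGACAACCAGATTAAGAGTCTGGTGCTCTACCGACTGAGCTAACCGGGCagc
hsp-1, snoRNA gene F26D10.24, chrIV:17280094-17280194: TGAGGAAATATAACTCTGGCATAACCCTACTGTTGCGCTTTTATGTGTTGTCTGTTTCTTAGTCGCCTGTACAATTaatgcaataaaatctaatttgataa
At these 6 summits the small RNA gene filled between 57 and 79 bases of the window.

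A second set shows 5 of the 6 strongest peaks with GAGAGA, or its other-strand form TCTCTC, within 50 bases of the summit (the other, in T28F4.1, is not printed), shown because the share of intron peaks with this word was above that of intron windows at large. Windows and strand are as above, and capitals mark the word.
C35B1.2, chrIV:4093257-4093357: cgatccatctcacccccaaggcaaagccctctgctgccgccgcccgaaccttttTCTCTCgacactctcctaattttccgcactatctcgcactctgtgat
mnk-1, chrII:10548883-10548983: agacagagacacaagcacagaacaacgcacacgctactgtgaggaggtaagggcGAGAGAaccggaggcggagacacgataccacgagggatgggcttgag
egl-27, chrII:6844250-6844350: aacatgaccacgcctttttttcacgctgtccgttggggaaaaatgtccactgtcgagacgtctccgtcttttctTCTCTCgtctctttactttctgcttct
Y57G11C.22, chrIV:14838262-14838362: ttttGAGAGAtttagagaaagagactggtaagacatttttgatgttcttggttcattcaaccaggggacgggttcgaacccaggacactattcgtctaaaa
C33A12.3, chrIV:9511705-9511805: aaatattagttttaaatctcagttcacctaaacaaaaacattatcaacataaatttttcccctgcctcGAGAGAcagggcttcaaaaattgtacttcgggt
The window in Y57G11C.22 also held a match to GTTCGANNC, the word searched for the tRNA B box.

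Signal values of the intron peaks ran from 3.503 to 21.7 with a median of 4.39, and 82 of them reached 7. The scale is the authors' caller's own, relative to a control, and is used only within a list. At the threshold the last peaks inside were in sprr-3 (3.504), gex-2 (3.503) and Y67D8A.2 (3.503), and the first outside were in K07E8.7 (3.4997), gfi-2 (3.496) and map-1 (3.494). Chromosome I held 233 of the intron peaks, II 210, III 222 and IV 182. As percentages, in that order, this was 27.5, 24.8, 26.2 and 21.5, against 27.95, 21.2, 24.6 and 26.3% of the 19163915 intron bases that met the same rule of position. All 847 peaks were 370 bp wide, while the introns holding them had a median length of 1219 bp and ran from 44 to 19927 bp. The whole peak lay inside the shortest intron holding the summit at 498 of the 847. Some of these still covered exons of other transcripts, as at the strongest mnk-1 peak, where exon sequence made up 47.6%. At the peaks outside the 498 exon sequence was always covered, so the intron itself cannot be singled out. Another pooled peak overlapped 150 of the 847, and such neighbours share reads.

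The strongest intron peak lay in ints-8, which encodes a subunit of the Integrator complex that processes the ends of small nuclear RNAs. It covered I:13463750-13464119, with a signal value of 21.7 in the pooled list, 9.28 in replicate 1 and 12.1 in replicate 2. Its summit was 20 bp from rpr-1, the gene for the RNA of RNase P, an enzyme that trims tRNA precursors. The next, in dhc-4, a dynein heavy chain gene, covered III:10986223-10986592 and had 18.3 in the pooled list, 3.88 in replicate 1 and 13.4 in replicate 2. It lay in intron 27 of 34, 799 bp from the start of the collagen gene col-93. The peak in Y55F3BR.2 (IV:866826-867195) had 16.7, 3.25 and 13.1 in the same order of lists, 45 bp from the snoRNA gene Y55F3BR.9. Those 3 were the only intron peaks in the authors' thresholded list, which held 0.836% of all pooled peaks on these autosomes past the signal threshold. They are 0.354% of the 847 (exact 95% interval 0.0731 to 1.03%).

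Most of the strongest intron peaks had peaks in both replicate lists. Of the 25 strongest, 21 were overlapped by a peak of replicate 1, 24 by one of replicate 2 and 20 by both, and replicate 2 had the higher value at 17 of these 20. The peak in pqn-41, a gene for a glutamine-rich protein, had 14.8 in the pooled list, 2.93 in replicate 1 and 11.2 in replicate 2. In C35B1.2 the order was the other way, with 12.1 in the pooled list, 8.20 in replicate 1 and 4.53 in replicate 2. The nuclear hormone receptor gene nhr-46 had 12.1 in the pooled list and 6.84 in replicate 2, with no peak in replicate 1. The scales of the lists are not stated, so these values show no difference in binding between replicates.

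**Figure D1:**
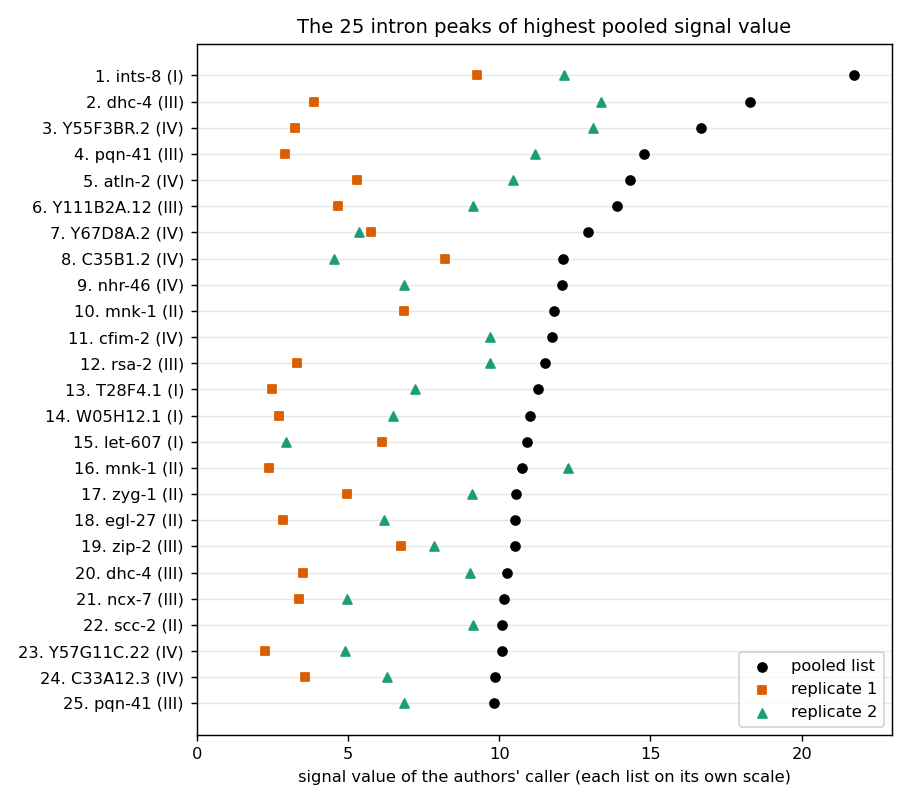
Signal value (x axis, each list on its own scale) of the 25 intron peaks of highest pooled signal value (rows, with rank, host gene and chromosome) in the pooled list (circles), replicate 1 (squares) and replicate 2 (triangles). A missing symbol means that no peak of that replicate overlapped, as at nhr-46 in replicate 1, and replicate 2 was higher at 17 of the 20 with both.

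Most intron peaks were seen in 1 replicate only or in neither. A peak of replicate 1 overlapped 248 of the 847 (29.3%), against 32.2% of all pooled peaks on these autosomes past the signal threshold. A peak of replicate 2 overlapped 533 (62.9%), against 64.7%. Peaks of both overlapped 107 (12.6%, exact 95% interval 10.5 to 15.1%), against 15.5%, and 173 (20.4%) were overlapped by neither. These shares were near the background and are no result about introns. Pooled and replicate lists share reads, so the overlap is a description, with no test.

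Recovery was higher at higher signal values. Of the 282 intron peaks from 3.5 to 4, 8 (2.84%) were in both replicates. From 4 to 5 it was 22 of 292 (7.53%), from 5 to 7 28 of 191 (14.7%), and at 7 or more 49 of 82 (59.8%). At 7 or more, peaks within 500 bp of a gene start had 53.8% in both, exon peaks 49.3% and intergenic peaks 51.4%, and the intervals overlapped. Across the 107 intron peaks found in both, the replicates' signal values had a Pearson r of 0.148 and a Spearman rho of 0.0929, a description across regions some of which share a replicate peak. The 107 were also selected on the pooled value and for a peak in both lists. The effect of that selection on the correlation was not tested. The median was 3.15 for overlapped intron peaks in replicate 1, whose whole list had 2.66, and 3.71 in replicate 2, whose whole list had 2.84. Intron peaks were kept for a high pooled value, the lists share reads, and the strongest overlapping replicate peak was taken. Medians above those of the whole lists therefore follow from the choice and show nothing about introns.

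**Figure D2:**
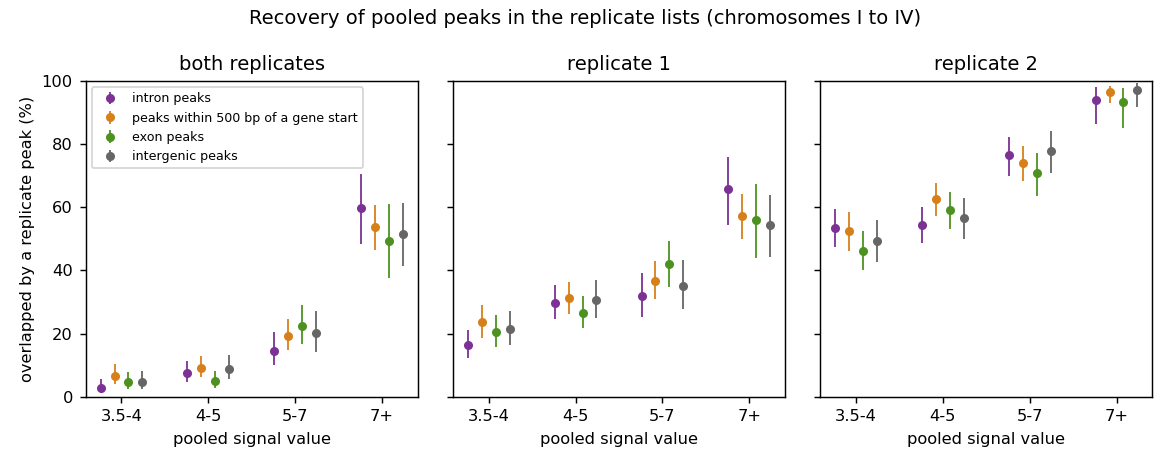
Share of pooled peaks (y axis, percent) overlapped by a peak of both replicates, of replicate 1 and of replicate 2 (panels), by pooled signal value (x axis), for intron peaks, peaks within 500 bp of a gene start, exon peaks and intergenic peaks on the same autosomes. Bars are exact 95% intervals and cover counting error only; in each panel the 4 kinds of peak lie close together, and from 7 up 59.8% of intron peaks were in both replicates.

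Intron peaks were more frequent beside small RNA genes than intron bases were. A tRNA, snoRNA, snRNA or microRNA gene lay within 200 bp of 45 of the 847 summits (5.31%, exact 95% interval 3.90 to 7.04%), against 0.623% of the eligible intron bases. No ribosomal RNA gene was that close (0 of 847, exact upper limit 0.435%). The share was 2.84% for signal values from 3.5 to 4, 2.40% from 4 to 5, 7.85% from 5 to 7 and 18.3% from 7 upward (15 of 82, interval 10.6 to 28.4%). Among other peaks past the threshold on these autosomes it was 2.82% within 500 bp of a gene start, 2.07% in exons and 5.96% between genes, so the share between genes was as high as in introns. No test was made between these classes, whose positions the rule fixed.

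The 45 were made up of 19 peaks at snoRNA genes, 14 at tRNA genes, 6 at snRNA genes and 6 at microRNA genes. The microRNA peaks lay at only 4 genes: 3 were at mir-58a in Y67D8A.2, and 2 of these overlapped the same peak in each replicate, the only microRNA peaks counted in both. Pooled signal values of all 45 ran from 3.503 to 16.7 with a median of 5.87, against a median of 4.33 for the other 802 intron peaks. A peak of replicate 1 overlapped 19 of the 45, one of replicate 2 overlapped 36, and 14 were in both. The summit was inside the small RNA gene at 14, and the small RNA gene had the strand of its host at 30 and the other strand at 15. Introns with a tRNA gene had a median length of 322 bp and those with a snoRNA gene 360 bp, both under the width of a peak. The peak also covered exon sequence at 11 of the 14 tRNA genes and 16 of the 19 snoRNA genes, and at the rest, such as cye-1 and sre-45, it covered none.

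Among the strongest of these, the peak in rsa-2, which encodes a centrosome protein, lay 44 bp from the tRNA gene WBGene00014553 and had 11.5 in the pooled list, 3.32 in replicate 1 and 9.68 in replicate 2. The peak in cfim-2, for a subunit of an mRNA cleavage factor, lay 86 bp from the snoRNA gene D1046.6 and had 11.7 in the pooled list and 9.71 in replicate 2, with none in replicate 1. A second peak in dhc-4 was 29 bp from the snRNA gene WBGene00014543, one of several annotated copies that share the name R07E5.16, with 10.3 in the pooled list, 3.52 in replicate 1 and 9.05 in replicate 2. A peak of replicate 2 overlapped each of these 3, and one of replicate 1 overlapped those in rsa-2 and dhc-4.

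The snoRNA gene C07A9.14 in ncx-7, a sodium-calcium exchanger gene, had the summit inside it, with 10.2 in the pooled list, 3.39 in replicate 1 and 4.97 in replicate 2. The peak in C33A12.3, 8 bp from the snRNA gene smy-1, had 9.86, 3.59 and 6.29 in these lists. A peak in Y67D8A.2 was 199 bp from mir-58a, a microRNA gene, and had 12.9, 5.77 and 5.37. The tRNA gene WBGene00022955 in cye-1, the cyclin E gene, was 35 bp from a summit of 8.65 in the pooled list, 2.91 in replicate 1 and 5.33 in replicate 2. At mir-2214 in B0361.11 the values were 8.19 in the pooled list and 7.48 in replicate 2, and at sup-6 in F58G1.7 8.02 and 14.5, with no peak of replicate 1 at either. All of these were found in replicate 2.

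Most summits at tRNA genes had the B box word nearby. GTTCGANNC, searched on both strands, lay within 100 bases of 10 of the 14 summits at tRNA genes, among them ptr-13, whose gene is printed above. These summits were picked for a tRNA gene nearby and the B box lies inside such genes, so the count says nothing about the peaks. Within 100 bases, 27 of all 847 intron peaks (3.19%) held the word, against 1.31% of eligible intron windows of that length. Over all intron peaks 15 of 847 (1.77%) held it within 50 bases, against 0.604% of all eligible intron windows of the same length and 1.30% of all pooled peaks on these autosomes past the threshold. Copies of tRNA genes are near-identical, and the sources do not say how reads matching several copies were placed.

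Other noncoding genes, piRNA genes left out, lay within 200 bp of 78 summits (9.21%, interval 7.35 to 11.4%), against 3.66% of intron bases, and 72 of the nearest were of the class annotated only as ncRNA. The 78 include peaks already counted at small RNA genes, so the counts overlap. Examples are the peaks in cfim-2 (0 bp from an ncRNA gene) and rsa-2 (38 bp). Starts of protein-coding transcripts other than the gene's outermost one were also near. Within 500 bp of such a start lay 128 summits (15.1%, interval 12.8 to 17.7%), against 8.89% of eligible intron bases. Neither share was computed for the other kinds of peak, so neither is shown to be particular to intron peaks. The share near transcript starts did not follow the signal value, with 13.1%, 18.2%, 13.1% and 15.9% from the weakest to the strongest of the 4 ranges.

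Internal starts were closest to the peaks in let-607 and mnk-1. In let-607, which encodes a transcription factor of the CREB family, the summit of the strongest of 5 peaks lay 2 bp from an annotated transcript start, with 10.9 in the pooled list, 6.14 in replicate 1 and 2.94 in replicate 2. In mnk-1, a kinase gene of the MAP kinase pathway, the summit lay 10 bp from one (II:10548748-10549117), with 11.8 in the pooled list, 6.85 in replicate 1 and no peak in replicate 2. Another mnk-1 peak 702 bp away had 10.8, 2.41 and 12.3. So in mnk-1 the neighbouring peaks were strong in different replicates.

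In egl-27, a chromatin gene related to the MTA proteins, a peak 37 bp from a transcript start had 8.18 in the pooled list, 2.58 in replicate 1 and 6.90 in replicate 2. In scc-2, which encodes the cohesin loader, the distance was 133 bp and the values were 10.1 in the pooled list and 9.14 in replicate 2, with none in replicate 1. In zip-2, a bZIP transcription factor gene, it was 193 bp, with 10.5, 6.75 and 7.85. In all, 10 summits lay within 50 bp of a coding transcript start and 25 within 100 bp. Of the 25 strongest intron peaks, 13 had a small RNA gene, another noncoding gene or a coding transcript start within these distances and 12 had none.

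The 12 include the peak in atln-2, an atlastin gene, with 14.3 in the pooled list, 5.29 in replicate 1 and 10.5 in replicate 2. They include Y111B2A.12, with 13.9, 4.66 and 9.15, where the peak lay wholly in an intron of 7076 bp. They also include zyg-1, the gene of a centriole duplication kinase, with 10.5, 4.96 and 9.09, where exon sequence made up 75.4% of the peak. At these 3 no annotated gene or start of the kinds searched lay within the distances used.

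First introns and long introns held more of the peaks than of the bases. A first intron of some protein-coding transcript held 310 of the 847 summits (36.6%, interval 33.3 to 39.9%), against 26.6% of eligible intron bases. Counting only introns that are first in every transcript there, the shares were 21.5% and 16.1%. Introns over 2000 bp held 332 summits (39.2%, interval 35.9 to 42.6%), against 30.3% of bases, and over the 4 ranges of signal value the share was 32.98%, 36.3%, 46.1% and 54.9%. Introns of up to 200 bp held 76 (8.97%), against 10.1% of bases. The distance to the nearest protein-coding gene start had a median of 2526 bp, and 229 summits were over 5000 bp away. The central 50% of each chromosome's length held 425 summits (50.2%), against 41.98% of bases. Peaks within 500 bp of a gene start had 61.6% there, exon peaks 63.3% and intergenic peaks 58.0%, so the intron share was the lowest of these 4 kinds.

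Sequence at the summits was richer in G and C than intron sequence. The windows around intron peak summits had a median GC content of 36.6%, against 32.7% over eligible intron bases. The median was 34.7% for signal values from 3.5 to 4 and 46.04% from 7 upward. Peaks within 500 bp of a gene start had a median of 40.6%, exon peaks 41.6% and intergenic peaks 38.6%. Soft-masked, that is repeat-like, sequence lay under 331 summits (39.1%, interval 35.8 to 42.5%), against 55.1% of intron bases. Peaks within 500 bp of a gene start had 24.98%, exon peaks 13.8% and intergenic peaks 28.2%, all below the intron share. Among intron peaks the share was 49.3% from 3.5 to 4 and 17.1% from 7 upward. The part of GC content and of repeats in the placement of peaks was not tested.

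Of the words searched on both strands, TAATTA, the homeodomain word, and TGATAA had intervals at intron peaks that included their shares in introns at large. TAATTA lay within 50 bases of 39 of 847 summits (4.60%, interval 3.29 to 6.24%), against 5.28% of all eligible windows of that length and 3.54% of all pooled peaks on these autosomes past the threshold. TGATAA, the core of GATA factor sites, was at 62 (7.32%, interval 5.66 to 9.29%), against 8.42% of windows and 8.16% of those pooled peaks. CACGTG, the E box, was at 24 (2.83%), against 1.38% of windows and 2.82% of those pooled peaks. A match is a description of letters and not a site.

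GAGAGA lay within 50 bases of 12.3% of summits (interval 10.1 to 14.7%), against 4.35% of eligible windows. It was at 11.8% of all pooled peaks on these autosomes past the threshold, inside that interval. The excess over intron windows is therefore no result about introns. Among intron peaks the share was 4.96%, 12.3%, 18.3% and 23.2% over the 4 ranges of signal value. The word goes with GC content, so windows were also compared within broad ranges of it. GC content was not matched inside a range, so its part in these shares was not tested. Below 32% GC it was at 3.68% of 272 summits, against 2.33% of windows. From 32 to 42% it was at 9.15% of 306, against 5.24%. From 42% upward it was at 66 of 269 (24.5%, interval 19.5 to 30.1%), against 8.90%. CACGTG was at 0.368%, 1.63% and 6.69% of summits over the same ranges, against 0.476%, 1.80% and 3.41% of windows. TAATTA was at 9.93% (27 of 272), 2.94% and 1.12% of summits, against 7.52%, 3.73% and 1.61% of windows. In each range the interval for TAATTA included the share of windows. The peaks with GAGAGA had pooled signal values from 3.52 to 12.1 with a median of 5.15, and 18 of them were in both replicates. GAGAGA was at 11.5% of peaks within 500 bp of a gene start, 7.80% of exon peaks and 15.9% of intergenic peaks, so intergenic peaks had a higher share still.

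The strongest peak with the word was in C35B1.2, given above. The window in egl-27 belonged to its other strong peak, with 10.5 in the pooled list, 2.84 in replicate 1 and 6.18 in replicate 2. In Y57G11C.22 the values were 10.1, 2.25 and 4.91. These 3 peaks were found in both replicates, while the mnk-1 peak was found in replicate 1 only.

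**Figure D3:**
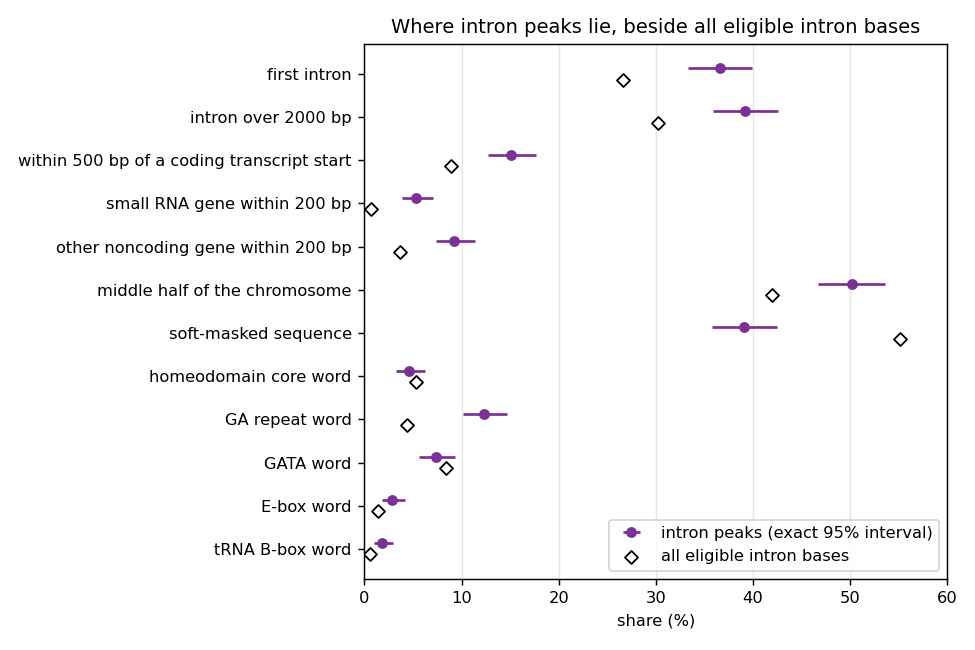
Share (x axis, percent) of the 847 intron peaks (filled circles, with exact 95% intervals for counting error only) and of all eligible intron bases (open diamonds) with each property (rows). The word rows are, from the top, the homeodomain word TAATTA, the GA repeat word GAGAGA, the GATA word TGATAA, the E box CACGTG and the B box word GTTCGANNC. Small RNA genes were near 5.31% of peaks and 0.623% of bases, and the GA word near 12.3% and 4.35%.

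**Figure D4:**
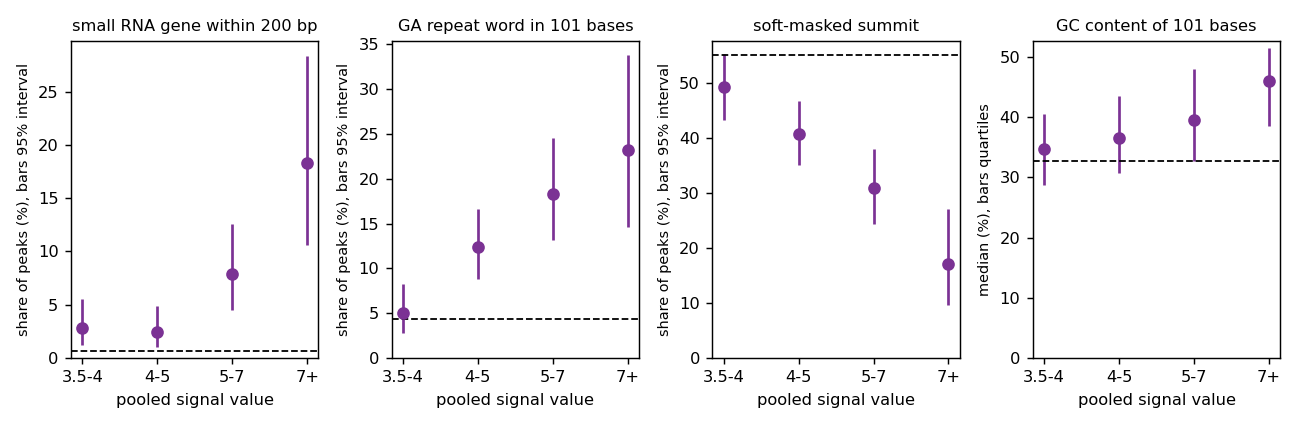
Share of intron peaks (y axis, percent, with exact 95% intervals) near a small RNA gene, with GAGAGA and in soft-masked sequence, and median GC content with its quartiles (last panel), by pooled signal value (x axis). The dashed line is the value over all eligible intron bases; soft-masked summits reach 17.1% and small RNA genes 18.3% at signal values of 7 or more.

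The 847 peaks lay in 635 host genes. Of these 125 held 2 or more, 48 held 3 or more and 19 held 4 or more. Over all eligible introns there were 0.442 intron peaks per 10 kb. The hosts below were picked for their number of peaks, so densities above this value follow in part from the choice. Hosts with 1 peak and few eligible bases also had high densities, such as C28D4.10 with 140.8 per 10 kb in 0.071 kb.

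The gene vhp-1, for a phosphatase that turns off stress-activated MAP kinases, held the most, 9 in 5 introns and 14.03 kb of eligible bases, or 6.42 per 10 kb. Their pooled signal values ran from 3.56 to 9.74 with a median of 4.44. Replicate 1 had a peak at 4 of them, replicate 2 at 6 and both at 2, and 5 of the 9 overlapped another pooled peak. The strongest, 7114 bp from the gene start, had 9.74 in the pooled list, 3.63 in replicate 1 and 5.72 in replicate 2. Coding transcript starts of vhp-1 itself lay within 500 bp of 3 of the 9.

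In pqn-41 there were 7, from 3.56 to 14.8 with a median of 5.13, and 5 of them fell in a single intron of 7776 bp. The 7 in lit-1, which encodes the Nemo-like kinase of a Wnt pathway, ran from 3.70 to 7.22 with a median of 4.31, and both replicates had a peak at 2. The strongest lit-1 peak had 7.22 in the pooled list, 4.24 in replicate 1 and 6.52 in replicate 2. The same replicate peaks overlapped its neighbour 203 bp away (5.74), so the pair is not independent.

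In ppfr-1, a regulatory subunit gene of a protein phosphatase, 6 peaks ran from 4.18 to 8.52 and 3 of them overlapped the same replicate 1 peak (6.98). The 6 in daf-16, the FOXO transcription factor gene of insulin signalling, were weak, from 3.69 to 5.09, with a peak of replicate 2 at 4 and of replicate 1 at 0. mnk-1 held 5, or 6.72 per 10 kb, from 3.76 to 11.8. let-607 held 5, from 4.20 to 10.9, and zfp-1, a chromatin gene related to AF10, held 5 with the highest median of these hosts, 8.22. The strongest zfp-1 peak had 9.02 in the pooled list, 6.61 in replicate 1 and 8.27 in replicate 2. In daf-5, of the TGF-beta pathway, all 5 lay in 1 intron of 14446 bp, and in lim-9 5 peaks ran from 3.64 to 5.64 with none in replicate 1. The 10 hosts with the most peaks differed in their median signal value and in how many peaks each replicate list held.

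**Figure D5:**
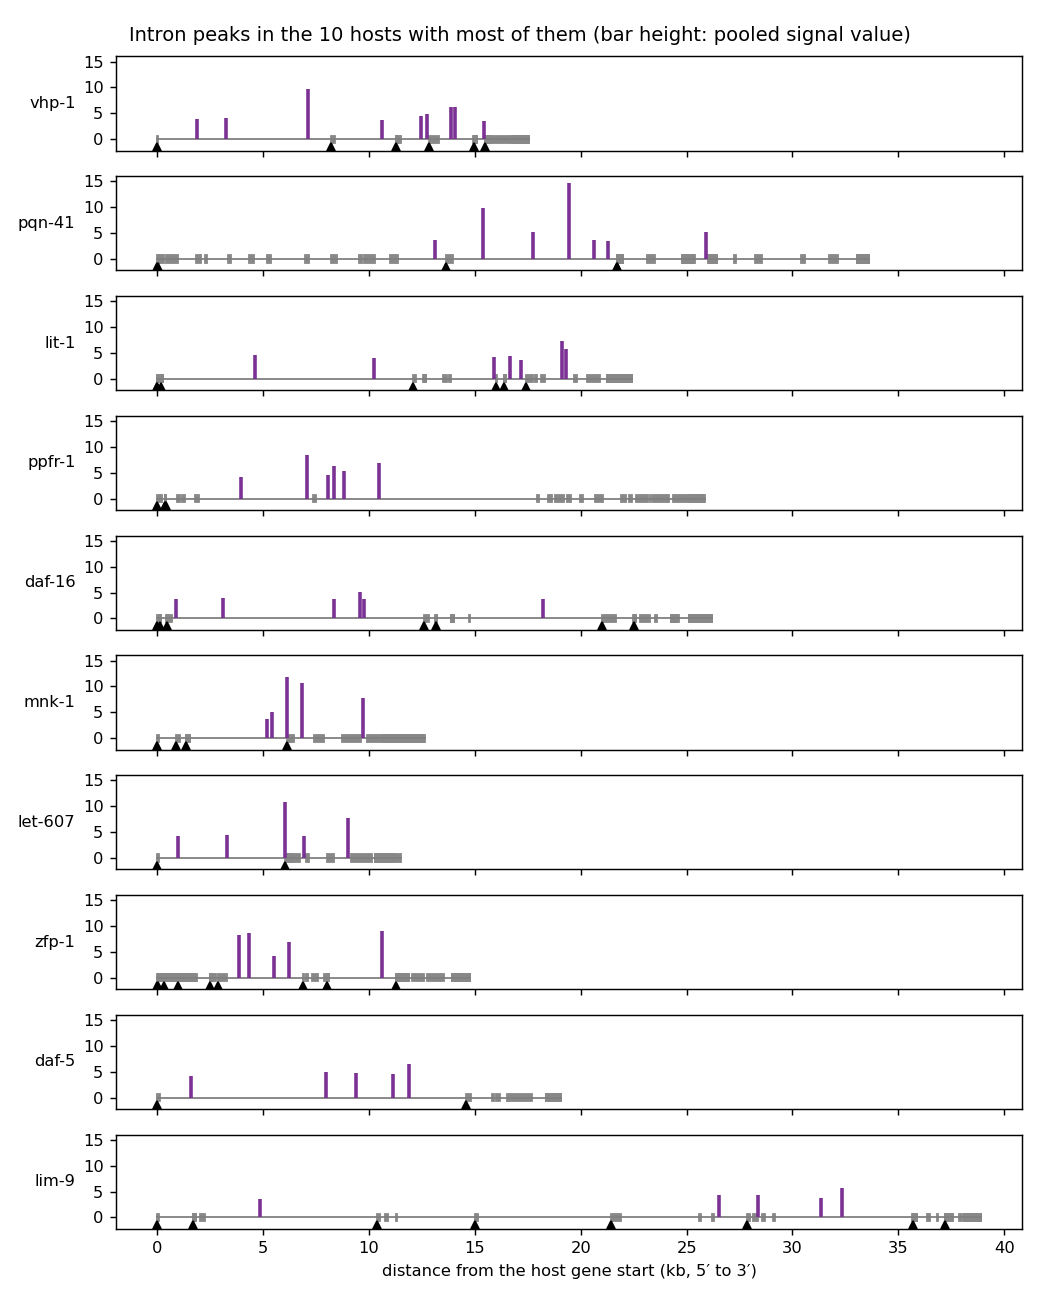
Position (x axis, kb from the host gene start, 5′ to 3′) and pooled signal value (bar height) of the intron peaks in the 10 hosts with the most. Grey boxes are exons of protein-coding transcripts and triangles their starts; vhp-1 has 9 peaks up to 9.74 and pqn-41 7 up to 14.8.

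Few intron peaks fell in any of the 10 gene lists. Ribosomal protein genes on these autosomes held 1, in rpl-12 (9.44 in the pooled list, 9.39 in replicate 2 and no peak in replicate 1), which was 0.118% of peaks against 0.0176% of bases. Numbered and body shape collagens held 2, both in col-71 (4.46 at the stronger), or 0.236% against 0.174%. Homeobox genes held 4 (0.472% against 0.791%), in cog-1 (5.98), ceh-45 (4.96), lin-11 (4.49) and zag-1 (4.48). Nuclear hormone receptor genes held 11 in 9 genes (1.30% against 0.803%), the strongest in nhr-46, nhr-34 (5.74), nhr-19 (5.41) and nhr-6 (5.13).

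Muscle genes held 9 in 7 genes (1.06% against 0.755%), with unc-52, the perlecan gene, at 5.01, unc-15, paramyosin, at 4.48, unc-22, twitchin, at 4.29 and lev-11, tropomyosin, at 4.25. Synapse and channel genes held 14 in 10 (1.65% against 1.19%). The strongest there was unc-25, the enzyme of GABA synthesis, with 7.49 in the pooled list, 3.65 in replicate 1 and 3.25 in replicate 2, followed by the potassium channel gene unc-103 with 7.45, 3.29 and 4.57. The Gq gene egl-30 had 6.51 and unc-13, for a protein of synaptic vesicle release, 6.03 in the pooled list. Every one of these shares rested on few peaks.

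Axon guidance and adhesion genes held 15 in 12 (1.77% against 1.72%), led by unc-73 (5.95), the beta-catenin gene hmp-2 (5.58), the cadherin gene hmr-1 (5.05) and sax-7 (4.92). Genes of Wnt, Notch, TGF-beta and EGF signalling held 17 in 6 (2.01%, interval 1.17 to 3.19%, against 1.03%), of which lit-1 and daf-5 together held 12, with mek-2 at 7.05 and cam-1 at 4.37. Integrator genes held 1, the peak in ints-8 (0.118% against 0.269%). The list of chromatin regulators held 8 in 4 (0.945% against 0.744%), in zfp-1, jmjd-2 (5.68), mix-1 (5.43) and met-1 (3.52). The lists are not complete: the chromatin gene egl-27 is in none of them. No test was made of any list.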

How the data were processed

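The authors deposited peak lists on ce11 for each of 2 replicates, for pooled reads of both, and a thresholded list, the longer lists being inputs to an irreproducible discovery rate procedure, per the labels. The deposited signal value of a peak is a score against a control, on a scale the labels do not name, and the deposited −log10 q-value was not used to rank. No caller, aligner or depth is named in the labels. Genes came from Ensembl release 115 and sequence from the RefSeq assembly, both WBcel235, the coordinates of ce11, and 0 pooled peaks passed a chromosome end. Host genes, introns, small RNA genes, words and GC content were computed with Python 3.11.15, NumPy 2.4.6, pandas 2.3.3 and SciPy 1.17.1 and drawn with Matplotlib 3.10.9. Lists on the older build ce10 were not used here. Replicate overlap needed 1 bp. Eligible intron bases are all bases meeting the rule of position. Intervals are exact Clopper-Pearson at 95%, for counting error only. The classification was checked at random positions of these autosomes with a second, slower method. The word search was checked on made-up sequence with planted words. No test was run: there is 1 group. Named genes are the 25 strongest, the thresholded, hosts with 3 or more peaks (at most 10), 10 at small RNA genes, up to 4 of each list and 5 on either side of the threshold, and not all are printed. Others, such as rpr-1 and the peaks at transcript starts, were chosen after their values were seen. Peaks and lists were chosen with earlier results of these data known. Alternatives changed the thresholds, windows and replicates.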

Additional observations from a re-analysis of the deposited data

How the results depend on the processing

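No paired analysis was possible because the 2 samples form 1 group and no test was made. With a signal value of 3 or more there were 1267 peaks, with 250 bp from gene starts 945, with 1000 bp 723, and with a signal value of 5 or more 273. Of the shares and medians recomputed, 64 stayed within the interval of the reported value and 35 did not. At 5 or more 28.2% were in both replicates, 42.1% in replicate 1 and 81.7% in replicate 2, 44.3% in a first intron, 11.0% near a small RNA gene and 26.7% in soft-masked sequence, with a median intron of 1791 bp and a median GC content of 42.6%. With 3 or more, 9.47% were in both replicates, 53.4% in replicate 2 and 42.9% in soft-masked sequence. When 50% of the peak had to be covered, 9.56% were in both and 59.4% in replicate 2. With the 1000 strongest peaks of each replicate, 2.72% were in both, 11.9% in replicate 1 and 17.1% in replicate 2. First introns of every transcript held 21.5% and a narrower central stretch of each chromosome 33.2%. With 1000 bp from gene starts the median intron was 1407 bp and the median distance 3110 bp, and with 250 bp the distance was 2182 bp. Keeping only peaks seen in replicate 2 or only those in replicate 1 gave 37.0 to 42.7% in first introns, 6.75 to 7.66% near a small RNA gene, 34.7 to 35.1% in soft-masked sequence, a median intron of 1242 to 1776.5 bp and a median GC content of 38.6% both ways. With windows of 100 bases on either side, GAGAGA was at 20.5% of summits, against 8.60% of intron windows. Some of the 35 follow from the changed definition itself. These are the stricter overlap, first introns of every transcript, the narrower central stretch, the median distance from gene starts and the wider windows for words. The cause of the other shifts was not tested. Depth is unknown, so no interval for a single peak could be given.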
